A study of Mus musculus with 4 samples.

Results

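The genes described here are the developmental transcription factors of the Hox, Nkx, Pax, Lhx, Dlx and Fox families and of the sine oculis family (such as Six4 and Six5) in mouse embryonic stem cells that had lost Exosc3, a core subunit of the nuclear RNA exosome. They were taken from the deposited expression table by symbol: every row whose name starts with one of these family names (Foxa to Foxs for the Fox genes) and a number was kept, Nkx2-9 was left out, and a symbol with several rows was represented by the row with the highest mean. This gave 108 of the 22883 rows, namely 31 Hox, 41 Fox, 9 Nkx, 9 Pax, 8 Lhx, 7 sine oculis and 3 Dlx entries. Of these, 4 are antisense transcripts that carry the name of their neighbour (Hoxa11as, Foxl2os, Pax6os1 and Six3os1).

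Hox, Nkx, Pax, Lhx, Dlx and sine oculis proteins bind DNA through a homeodomain or a paired domain, and Fox proteins through a forkhead domain. Most of them specify position or cell fate in the embryo, and in pluripotent stem cells the majority are kept silent or nearly so by Polycomb complexes at promoters rich in CpG dinucleotides. A minority, such as Foxh1, Foxd3 and several Foxo, Foxk and Foxp genes, is active in embryonic stem cells or in most cell types. The RNA exosome degrades and trims nuclear RNA, including short unstable transcripts from the upstream, antisense strand of promoters.

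All 4 libraries came from clones with a conditional Exosc3 knockout (Exosc3 CKO) derived from V6.5 embryonic stem cells and grown without feeder cells. The present group (n = 2) stayed in doxycycline at 0.1 µg/ml, which the labels equate with Exosc3 expression, and the depleted group (n = 2) was without doxycycline for 3 days. Both groups carry the knockout alleles, so doxycycline and Exosc3 cannot be told apart, and no source used here says whether the replicates are separate cultures or clones; p-values therefore measure only the spread between these libraries. Values are FPKM, fragment numbers divided by the length of the gene model and by a library total, from ribosomal RNA-depleted total RNA. In bulk RNA, fewer cells expressing a gene and less of its RNA per cell cannot be told apart.

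Exosc3 itself was at 24.2 and 23.2 FPKM in the present libraries and at 0.635 and 0.691 FPKM in the depleted libraries, which matches the labels (limma, log2 change -4.38 ± 0.18 SE, adjusted p = 0.000129). Between 16125877 and 30219974 fragments per library fell in listed gene models, and the shallower libraries were the depleted ones. The depleted pair differed more from each other than the present pair did (SD of the log2 difference over tested rows 0.43 against 0.19). The median tested row was 0.27 lower in the depleted libraries on the log2 scale, and rescaling the libraries brought this median to between -0.06 and 0.03. Changes of the genes below are to be read against that median.

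Most of these factors were expressed at very low levels in both groups. A value of exactly 0 in all 4 libraries was found for 8 of the 108 genes (7.41%), against 32.4% of all rows: Foxi1, Hoxb2, Hoxc8, Hoxc9, Hoxc11, Nkx2-1, Nkx3-2 and Pax6os1. At the same time only 20.4% of the 108 genes reached a mean of 0.5 FPKM, against 40.8% of all rows. They thus lay mostly between silence and that level. In the present libraries 79 and 74 of the 108 genes were above 0 (73.1% and 68.5%), and in the depleted libraries 84 and 88 (77.8% and 81.5%). The corresponding shares of all rows were 61.4% and 60.7% in the present and 61.0% and 62.6% in the depleted libraries. The depleted libraries therefore held more of these genes above 0 although they were the shallower ones, where 1 fragment on a 1 kb model is worth 0.0262 and 0.0238 FPKM instead of 0.0164 and 0.0181. The highest gene by mean was Foxh1 (22.8 FPKM) among the Fox genes, Six4 (0.866) among the sine oculis genes, Dlx3 (0.245) among the Dlx, Lhx6 (0.225) among the Lhx and Pax6 (0.0670) among the Pax genes.

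The comparison of present with depleted libraries was made with limma on log2(FPKM + 0.5) over the 9336 rows with a mean of at least 0.5 FPKM, and a gene was said to rise or fall when its Benjamini-Hochberg adjusted p was below 0.05. This scale understates the change of low genes. Of the 108 genes 22 could be tested, among them 18 Fox genes, Hoxc13, Six4 and Six5. Of these, 6 rose (among them Foxj1, Foxo3, Foxh1, Hoxc13 and Foxq1), 7 fell (Foxr1, Six4, Foxn4, Foxo4, Foxk2, Foxp4 and Foxo6) and 9 were not called. Among all tested rows, 12.6% rose and 30.1% fell. Hoxc13 and Foxq1, among others, passed the filter only through the depleted libraries, and Foxr1, Six4 and Foxo6 only through the present ones, so the numbers of called genes are given as a description. For these genes the p-value given in support is that of the fragment test described below. The filter lay between Foxe1, Foxi3 and Hoxb9 below it (means of 0.453, 0.348 and 0.335 FPKM) and Foxr1, Hoxc13, Foxo6 and Foxj2 just above it (0.531, 0.592, 0.650 and 0.692 FPKM).

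**Figure D1:**
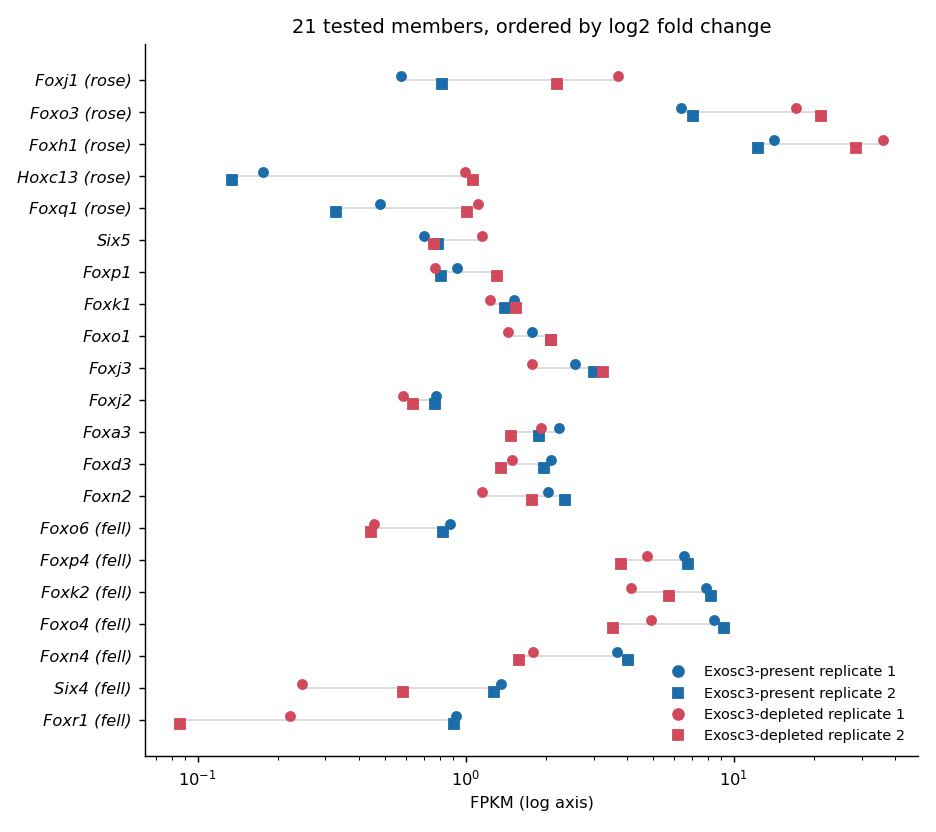
FPKM of 21 tested genes in each of the 4 libraries on a log axis, ordered from the largest rise (top) to the largest fall (bottom). Circles and squares are replicates 1 and 2, blue the present and red the depleted libraries. The red and blue points are apart for all 12 called genes drawn, which were picked for a difference in these same libraries. Foxo3 goes from 6.37 and 7.07 FPKM to 17.1 and 21.1 FPKM.

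Because an FPKM value is a whole number of fragments divided by the length of the model and by a library total, fragment numbers could be recovered for every row above 0. They were tested with limma-voom over the 13004 rows with at least 10 fragments in all, a test added after the data had been seen and called the fragment test below. It reached 63 of the 108 genes, of which 20 rose, 11 fell and 32 were not called. Among all rows in the fragment test 15.3% rose and 25.9% fell. All 13 genes called by the first test were called in the same direction, and 14 further genes rose and 4 further genes fell. Of the 20 that rose, 11 had at least 10 fragments in the present libraries alone, and of the 11 that fell, 8 had at least 10 in the depleted libraries alone; the others (among them Lhx1, Lhx5, Pax1, Foxl2, Foxl2os, Foxd4, Hoxc6 and Nkx2-3 of those that rose, and Nkx6-3 and Nkx2-4 of those that fell) passed the filter only through the group in which they are high. For these no p-value is given as support. Ratios of fragments, scaled to the recovered library totals, are given with exact 95% intervals as a description. The intervals cover counting error only and do not correct for how the genes were picked. That also holds for genes below 10 fragments that are named for a value of 0 in 1 group. With no filter on low FPKM, the log2(FPKM + 0.5) fit called 21 of 100 genes higher and 9 lower, against 11.3% and 18.7% of all 15471 rows.

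The Hox genes are arranged in 4 chromosomal clusters, and their order within a cluster follows the order of their expression along the body axis. In these cells 20 and 17 of the 31 Hox entries were above 0 in the present libraries and 21 and 24 in the depleted libraries. The 29 Hox entries under a mean of 0.5 FPKM summed to 0.976 and 0.956 FPKM in the present and to 1.69 and 1.76 FPKM in the depleted libraries. In the fragment test 5 of 13 Hox genes rose (among them Hoxc13, Hoxc6, Hoxa7 and Hoxb9) and 0 fell, beside 15.3% and 25.9% of all rows in that test.

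Hoxa2, a gene of hindbrain patterning, was at 0 in both present libraries and at 0.0625 and 0.0425 FPKM in the depleted libraries. That is 4 and 3 fragments. The exact 95% interval of the ratio of depleted to present, scaled to the library totals, starts at 2.09 and covers counting error only. Gm28308 overlaps Hoxa2 exons on the same strand, so reads in the overlap cannot be told apart.

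Hoxc13 lies at the end of the Hoxc cluster and is known for its role in hair and nails. It was at 0.176 and 0.134 FPKM in the present libraries and at 0.993 and 1.07 FPKM in the depleted libraries, with no overlap. It rose by 1.22 ± 0.15 (SE) on the log2(FPKM + 0.5) scale (limma), a test it entered only through the depleted libraries. On the log2 scale of the fragment test it rose by 2.71 ± 0.31 (adjusted p = 0.000562). Its neighbours were not called: Hoxc12 had 1 and 6 fragments in the present and 2 and 2 in the depleted libraries, and Hoxc11 was at 0 in all 4 and could not be tested.

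Hoxb9, which patterns the rib cage, was at 0.183 and 0.134 FPKM in the present libraries and at 0.486 and 0.539 FPKM in the depleted libraries, and rose by 1.69 ± 0.32 (SE) on the log2 scale (fragment test, adjusted p = 0.00435). Hoxa7 was at 0.0337 and 0.0557 FPKM and at 0.188 and 0.183 FPKM, respectively, and rose by 2.02 ± 0.51 (adjusted p = 0.0152). Without present replicate 1 the adjusted p of Hoxa7 was 0.116. Hoxa7 exons are overlapped on the opposite strand by Hoxaas3, and since the sources used here do not say whether strand was used in counting, reads of the pair cannot be told apart. Hoxc6 had 1 and 0 fragments in the present and 10 and 6 in the depleted libraries. Scaled to the library totals the ratio was 23.2, with an exact 95% interval from 3.60 to 973. For all 3 genes both depleted libraries were above both present ones.

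Of the 7 Hoxd genes 0 entered the main test and 4 the fragment test, and none of these was called. Among all rows of the fragment test 15.3% rose and 25.9% fell. The summed FPKM of all 7 Hoxd genes was 0.408 and 0.301 in the present and 0.195 and 0.384 in the depleted libraries, so the groups overlapped. Hoxd1 was at 0.168 and 0.107 FPKM in the present and at 0.0564 and 0.128 FPKM in the depleted libraries. Hoxd9 was higher in both depleted libraries, at 1 and 1 fragments against 3 and 5. Its ratio of depleted to present, scaled to the library totals, was 5.80, with an exact interval from 1.16 to 56.1 that covers counting error only. Hoxd9 was not called in the fragment test (adjusted p = 0.0539) and was called with library totals set to the fragments in listed models. It reached 10 fragments only through the depleted libraries, so that call is not taken as support. Whether the Hoxa, Hoxb and Hoxc clusters differ from the Hoxd cluster was not tested. Hoxa11 was at 0 in both present libraries and had 1 and 3 fragments in the depleted libraries. The exact interval of that ratio starts at 0.957, and with so few fragments no difference is claimed. Hoxa11os overlaps Hoxa11 exons on the opposite strand.

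**Figure D2:**
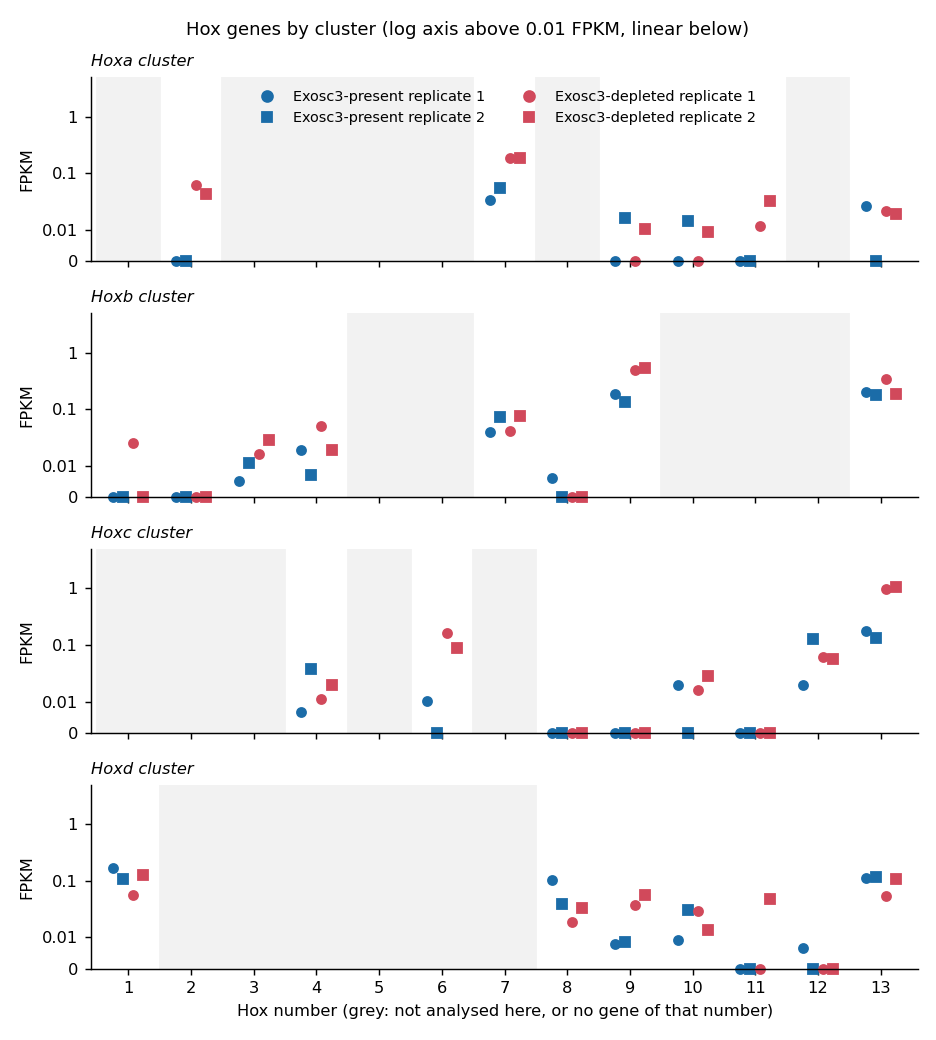
FPKM of the Hox genes in each library by cluster (rows) and Hox number (x axis), on an axis that is logarithmic above 0.01 FPKM and linear below. Hoxa7, Hoxb9, Hoxc6 and Hoxc13 have both depleted libraries (red) above both present ones (blue) by a wide margin, and most other positions hold values under 0.1 FPKM in both groups; Hoxa11as and genes not reported here are not drawn.

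The Foxo genes encode forkhead factors that insulin and growth factor signalling keeps out of the nucleus, and they moved in different directions. Foxo3 was at 6.37 and 7.07 FPKM in the present libraries and at 17.1 and 21.1 FPKM in the depleted libraries, with no overlap. It rose by 1.44 ± 0.19 (SE) on the log2 scale (limma, adjusted p = 0.00166), on 1119 and 1128 fragments in the present and 1881 and 2564 in the depleted libraries. Foxo4 was at 8.42 and 9.22 FPKM in the present and at 4.90 and 3.54 FPKM in the depleted libraries and fell by 0.996 ± 0.211 on the log2 scale (adjusted p = 0.0095). Foxo6 was at 0.878 and 0.824 FPKM and at 0.457 and 0.443 FPKM, respectively. It fell by 0.51 ± 0.15 on the log2(FPKM + 0.5) scale (limma) and by 0.91 ± 0.26 in the fragment test (adjusted p = 0.0227). Foxo1 was at 1.77 and 2.08 FPKM in the present and at 1.44 and 2.09 FPKM in the depleted libraries, so its groups overlapped, and it was not called (adjusted p = 0.693). The fall of Foxo4 was not called under quantile normalization (adjusted p = 0.0599) or without present replicate 1 or 2 (adjusted p = 0.0638 and 0.12). That of Foxo6 was lost under median-of-ratios scaling (adjusted p = 0.1), with scaling that leaves out the 50 highest rows (adjusted p = 0.14) and without either present replicate (adjusted p = 0.282 and 0.242), while Foxo3 kept its call under all 14 alternatives.

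Of the upstream regulators and known targets of FoxO proteins, 16 were tested, 4 rose and 2 fell. The number that rose was 7 with median-of-ratios scaling and with scaling that leaves out the 50 highest rows, and 6 with quantile normalization. Sesn3, an inhibitor of mTORC1 signalling, rose from 2.07 and 1.88 FPKM to 5.30 and 10.5 FPKM (log2 change 1.69), and Pink1, a mitochondrial quality-control kinase, rose by 1.05 on the log2 scale. The pro-apoptotic genes Bcl2l11 and Bbc3 rose by 0.75 and 0.69, and were named after their values were seen. Klf2, a pluripotency factor, fell by 1.09, and Sgk1, a kinase that phosphorylates FoxO proteins, fell by 1.23. The median of the list was 0.04 beside -0.27 for all tested rows.

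Foxh1 is the DNA-binding partner of the Smad proteins in Nodal signalling and had the highest level of the 108 genes. It was at 14.1 and 12.3 FPKM in the present libraries and at 36.2 and 28.5 FPKM in the depleted libraries, with no overlap, and rose by 1.25 ± 0.19 (SE) on the log2 scale (limma, adjusted p = 0.0029). Of its partners and the Nodal pathway genes 10 were tested, of which 2 rose and 6 fell. The ligand Nodal rose by 1.18 and the feedback inhibitor Lefty1, named after its value was seen, rose by 1.12, whereas the co-receptor Tdgf1 (log2 change -1.60), the receptor Acvr1b (-1.24) and Lefty2 (-0.99) fell. Under median-of-ratios scaling 3 of the 10 rose and 3 fell. Foxd3, a forkhead repressor needed for pluripotency, was at 2.08 and 1.96 FPKM in the present and at 1.49 and 1.36 FPKM in the depleted libraries and was not called (log2 change -0.39 ± 0.17, adjusted p = 0.111). Its groups did not overlap.

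Foxj1, the master regulator of motile cilia, was at 0.574 and 0.815 FPKM in the present libraries and at 3.70 and 2.19 FPKM in the depleted libraries. It rose by 1.50 ± 0.25 (SE) on the log2(FPKM + 0.5) scale (limma, adjusted p = 0.00396) and by 2.05 ± 0.32 in the fragment test. Foxq1 was at 0.480 and 0.329 FPKM and at 1.11 and 1.01 FPKM, respectively. It rose by 0.79 ± 0.16 on the log2(FPKM + 0.5) scale (limma) and by 1.40 ± 0.28 in the fragment test (adjusted p = 0.0053). Both groups were separate for both genes, but the call of Foxq1 was lost without present replicate 2 (adjusted p = 0.168), and the antisense transcript A530084C06Rik overlaps its exons. Its chromosomal neighbours Foxf2 and Foxc1 had 2 to 6 fragments in each library and were not called.

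Among the Fox genes that fell, Foxr1 showed the largest change. It was at 0.917 and 0.902 FPKM in the present libraries and at 0.221 and 0.0858 FPKM in the depleted libraries, or 93 and 83 fragments against 14 and 6. It fell by 1.12 ± 0.16 (SE) on the log2(FPKM + 0.5) scale (limma), and its fragment test gave -2.67 ± 0.45 (adjusted p = 0.00279). Its paralogue Foxr2 was at 0.236 and 0.214 FPKM in the present and at 0.0409 and 0.0743 FPKM in the depleted libraries and also fell, by 1.93 ± 0.44 (fragment test, adjusted p = 0.0101). Both Foxr genes were thus lower in both depleted libraries. Foxn4, known from retinal and spinal interneurons, was at 3.66 and 4.05 FPKM and at 1.78 and 1.59 FPKM, respectively, and fell by 0.997 ± 0.184 (adjusted p = 0.00561). Without present replicate 1 or 2 the adjusted p of Foxn4 was 0.0544 and 0.108.

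Foxk2, a broadly expressed metabolic regulator, was at 7.86 and 8.27 FPKM in the present and at 4.14 and 5.72 FPKM in the depleted libraries and fell by 0.67 ± 0.21 (SE) on the log2 scale (limma, adjusted p = 0.0386). Foxp4 was at 6.55 and 6.78 FPKM and at 4.74 and 3.79 FPKM, respectively, and fell by 0.60 ± 0.19 (adjusted p = 0.0441). The groups did not overlap for either gene. Both calls were lost under each of 3 rescalings (adjusted p from 0.113 to 0.278 for Foxk2 and from 0.224 to 0.28 for Foxp4), with no filter on low values (adjusted p = 0.0644 and 0.0625) and without either present replicate (adjusted p = 0.252 and 0.329 for Foxk2, 0.333 and 0.399 for Foxp4). The other tested Fox genes, Foxn2, Foxa3, Foxj2, Foxj3, Foxk1 and Foxp1, had log2 changes between -0.47 and 0.15 and were not called. The groups did not overlap for Foxn2 (2.03 and 2.35 against 1.15 and 1.77 FPKM) and Foxj2 (0.777 and 0.769 against 0.586 and 0.637 FPKM). For the others they did.

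**Figure D3:**
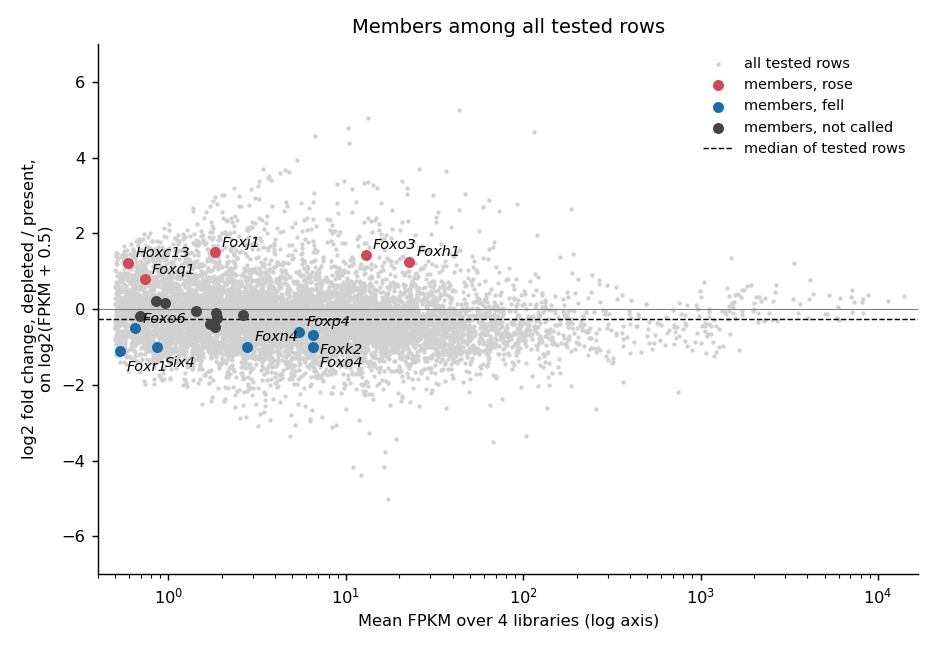
Log2 change on log2(FPKM + 0.5), depleted over present (y axis), against mean FPKM over the 4 libraries (log x axis) for all 9336 tested rows (grey), with 21 of the tested developmental factors in red (rose), blue (fell) and dark grey (not called). The dashed line is the median of all tested rows at -0.27; Foxo3 and Foxh1 are the only risers above 10 FPKM, and Foxk2, Foxp4 and Foxo6 lie close to the median.

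The sine oculis genes encode homeodomain partners of the Eya and Dach cofactors. Six4 was at 1.36 and 1.27 FPKM in the present and at 0.245 and 0.586 FPKM in the depleted libraries. It fell by 1.01 ± 0.21 (SE) on the log2(FPKM + 0.5) scale (limma) and by 1.78 ± 0.37 in the fragment test (adjusted p = 0.00641). Six6, an eye and pituitary factor, had 13 and 5 fragments in the present and 1 and 1 in the depleted libraries and was not called (fragment test, log2 -2.01, adjusted p = 0.0749). The Six4 call was lost when the 50 highest rows were left out of the scaling (adjusted p = 0.0563). Six5, a paralogue on another chromosome, was at 0.697 and 0.787 FPKM in the present and at 1.15 and 0.760 FPKM in the depleted libraries, overlapped between groups and was not called (adjusted p = 0.387). Of the Eya and Dach partners only Eya3 could be tested, and it was not called (log2 change -0.28, adjusted p = 0.294).

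Among the Nkx genes, which pattern the ventral neural tube, foregut and heart, Nkx6-3 and Nkx2-4 fell and Nkx2-3 rose. Nkx6-3 was at 0.595 and 0.462 FPKM in the present and at 0.0587 and 0.0213 FPKM in the depleted libraries, or 81 and 57 fragments against 5 and 2. Scaled to the library totals it was 13.6-fold higher in the present libraries, with an exact 95% interval from 6.43 to 34.5. Nkx2-4 had 24 and 26 fragments against 2 and 3, a ratio of 6.90 (2.77 to 22.2) in the same direction. Nkx2-3 had 1 and 0 fragments against 8 and 3, a ratio of depleted to present of 15.9 (2.32 to 686). The last call rested on few fragments and was lost without present replicate 2 (adjusted p = 0.11), without depleted replicate 1 (adjusted p = 0.0503) and with no filter (adjusted p = 0.107).

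Nkx2-4 lies beside Pax1 and Foxa2 on chromosome 2, with 1 other coding gene between Nkx2-4 and Pax1. These neighbours went the other way. Foxa2, a pioneer factor of endoderm and floor plate, was at 0.0927 and 0.0511 FPKM in the present and at 0.617 and 0.448 FPKM in the depleted libraries, or 12 and 6 fragments against 50 and 40, and rose by 2.84 ± 0.45 (SE) on the log2 scale (fragment test, adjusted p = 0.00219). Pax1, a factor of the sclerotome and pharyngeal pouches, was at 0 in both present libraries and at 0.0697 and 0.0813 FPKM in the depleted libraries, or 7 and 9 fragments, and the exact 95% interval of its ratio starts at 5.59. Foxa1, a paralogue of Foxa2, had 1 and 1 fragments against 2 and 3 and was too low to be tested, and Foxa3 was not called at 2.23 and 1.88 against 1.92 and 1.47 FPKM.

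The LIM-homeodomain gene Lhx1, which acts in head organisation and kidney development, was at 0 in both present libraries and at 0.0955 and 0.0780 FPKM in the depleted libraries, or 10 and 9 fragments. The exact 95% interval of the ratio of depleted to present, scaled to the library totals, starts at 6.77. Its paralogue Lhx5 was at 0.03003 and 0.0265 FPKM in the present and at 0.0863 and 0.113 FPKM in the depleted libraries, or 5 and 4 fragments against 9 and 13, a ratio of 3.54 (1.57 to 8.74). The Lhx5 call was lost without present replicate 1 (adjusted p = 0.122), present replicate 2 (adjusted p = 0.159) and depleted replicate 2 (adjusted p = 0.0512), and Gm27199 overlaps its exons on the opposite strand. Lhx6, the highest of the family at 0.250 and 0.307 against 0.166 and 0.178 FPKM, was not called (adjusted p = 0.121). Pax3, a neural crest and muscle regulator, was at 0 in both present libraries and at 0.0467 and 0.0706 FPKM in the depleted libraries, with an interval that starts at 2.47. With 8 fragments in all it was too low for the fragment test. Pax6 overlapped between groups (9 and 4 fragments against 1 and 4), as did Dlx2 (3 and 3 against 1 and 3), and neither was called. Dlx3, the highest Dlx gene, had 49 and 41 fragments against 22 and 18 and was not called (adjusted p = 0.167).

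Altogether 7 of the 108 genes were at 0 in both present libraries and above 0 in both depleted libraries, against 1.23% of all rows: Lhx1, Pax1, Pax3, Hoxa2, Hoxa11, Lhx4 and Lhx9. Lhx4 had 2 and 1 fragments and Lhx9 1 and 1 in the depleted libraries. The opposite pattern was found for 3 genes, against 0.948% of all rows: Pax5 and Six2 had 1 and 1 fragments in the present libraries, and Foxi2 had 2 and 1. At the depth of these libraries a value of 0 allows up to 3 fragments, which on a 1 kb model is 0.0493 and 0.0543 FPKM in the present and 0.0787 and 0.0715 FPKM in the depleted libraries. Of the 7 genes, Lhx1 and Pax1 had more than 3 fragments in each depleted library. Counting genes above 0 in 1 library as well, 16 of the 108 were above 0 in depleted libraries alone and 6 in present libraries alone, beside 3.95% and 2.85% of all rows. All these shares are over rows of every level. Of the 108 genes 86 had a mean under 0.5 FPKM, where values of 0 in some libraries are frequent. A comparison with rows of like level was not made. Foxn1, with 1 and 0 fragments against 2 and 1, and Foxc2, with 2 and 5 against 0 and 1, also had means at least 4-fold apart on too few fragments to test.

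The forkhead genes that rose from low levels included Foxl2, Foxl2os, Foxd4, Foxe1 and Foxi3. Foxe1, a thyroid and palate factor, was at 0.0736 and 0.0811 FPKM in the present and at 0.847 and 0.811 FPKM in the depleted libraries, or 5 and 5 fragments against 36 and 38, and rose by 3.31 ± 0.45 (SE) on the log2 scale (fragment test, adjusted p = 0.00116). Foxi3, known from teeth and placodes, was at 0.0954 and 0.225 FPKM in the present and at 0.457 and 0.612 FPKM in the depleted libraries and rose by 1.83 ± 0.49 (adjusted p = 0.0178). Without present replicate 1 the adjusted p of Foxi3 was 0.169. Foxd4 had 1 and 0 fragments against 8 and 5, a ratio of 18.8 (exact 95% interval from 2.83 to 801), and its call was lost without present replicate 2 (adjusted p = 0.0581). Gm12446 overlaps the exons of Foxe1 on the opposite strand.

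Foxl2, the determinant of ovarian granulosa cells, is transcribed head to head with its antisense neighbour Foxl2os, and both rose. Foxl2 had 1 and 0 fragments in the present and 15 and 9 in the depleted libraries. Scaled to the library totals the ratio was 34.8, with an exact 95% interval from 5.67 to 1431. Foxl2os had 1 and 1 fragments against 8 and 13, a ratio of 15.2 (3.72 to 134). Their starts lie 297 bases apart in RefSeq and their exons overlap in GENCODE, so that reads of the pair cannot be told apart without strand.

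**Figure D4:**
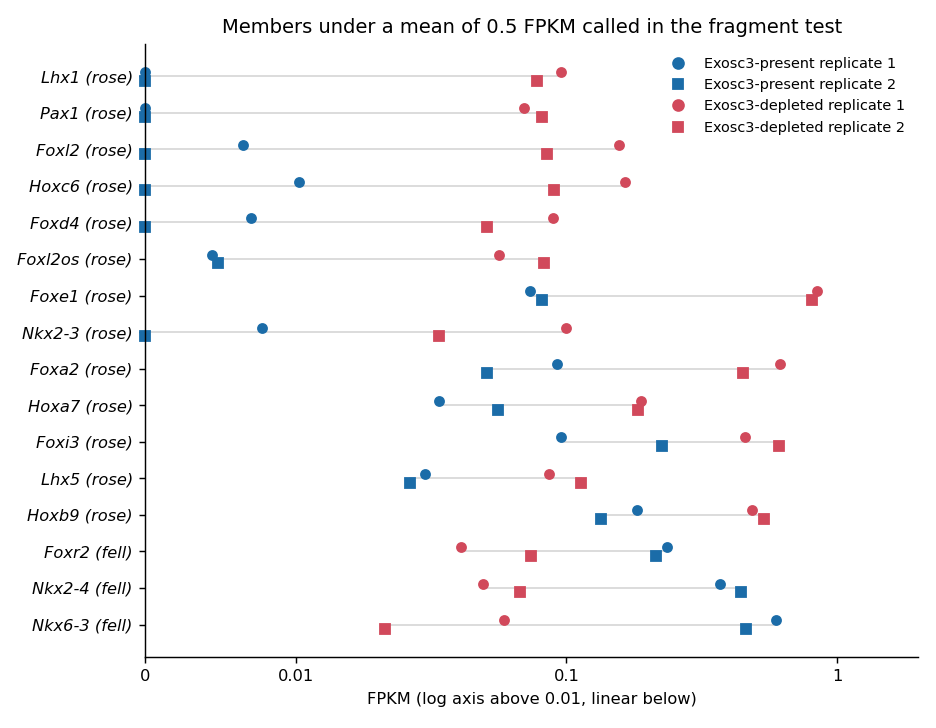
FPKM in each library of 16 genes with a mean under 0.5 FPKM that were called in the fragment test, ordered by log2 change, on an axis that is logarithmic above 0.01 FPKM and linear below. The 13 genes marked as rising have both depleted libraries (red) to the right of both present ones (blue), with Lhx1 and Pax1 at 0 in both present libraries. Foxr2, Nkx2-4 and Nkx6-3 show the opposite. All were picked for a difference in these same libraries.

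The promoter windows of these genes were mostly rich in CpG dinucleotides. RefSeq windows from 250 bases before to 50 bases after each start were matched for 71 of the 108 genes (85 windows, some genes having several starts). The ratio of observed to expected CpG dinucleotides had a median of 0.688 in these windows, against 0.384 over all 32851 windows. It was 0.694 for the genes that rose, 0.701 for those that fell and 0.745 for those not called in the fragment test. In the windows of genes too low for that test it was 0.625, with a first quartile of 0.354 that lies below the median of all windows. The windows of Foxl2, Lhx1 and Nkx2-4 are shown because they belong to genes called in each direction. All 3 windows have a ratio above the median of 0.688. They are given 5′ to 3′ on the strand of the gene with every CG in capitals (RefSeq, GRCm38.p6, which is not the build named for the deposited table). Foxl2 is on the plus strand at chr9:98955357-98955656, Lhx1 on the minus strand at chr11:84525485-84525784 and Nkx2-4 on the minus strand at chr2:147085296-147085595.
Foxl2: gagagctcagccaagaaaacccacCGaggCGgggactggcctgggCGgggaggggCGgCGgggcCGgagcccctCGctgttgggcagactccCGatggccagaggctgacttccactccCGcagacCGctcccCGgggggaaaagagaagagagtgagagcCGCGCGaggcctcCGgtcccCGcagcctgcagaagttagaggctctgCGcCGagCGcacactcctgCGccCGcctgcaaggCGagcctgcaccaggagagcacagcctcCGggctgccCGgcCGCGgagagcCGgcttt
Lhx1: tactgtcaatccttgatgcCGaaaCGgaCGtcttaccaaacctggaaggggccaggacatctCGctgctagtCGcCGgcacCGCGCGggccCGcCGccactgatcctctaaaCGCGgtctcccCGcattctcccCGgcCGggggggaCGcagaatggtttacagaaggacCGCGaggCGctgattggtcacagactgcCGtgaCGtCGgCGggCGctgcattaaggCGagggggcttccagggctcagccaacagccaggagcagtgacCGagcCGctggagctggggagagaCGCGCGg
Nkx2-4: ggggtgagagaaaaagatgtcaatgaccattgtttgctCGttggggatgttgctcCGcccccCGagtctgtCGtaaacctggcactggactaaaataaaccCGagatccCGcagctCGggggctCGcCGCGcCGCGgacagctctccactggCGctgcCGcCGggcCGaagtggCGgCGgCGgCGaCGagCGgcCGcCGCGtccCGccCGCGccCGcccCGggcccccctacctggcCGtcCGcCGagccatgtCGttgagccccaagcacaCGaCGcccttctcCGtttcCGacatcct
The 300 bases hold 27 CG dinucleotides in Foxl2 (ratio 0.708), 31 in Lhx1 (0.961) and 38 in Nkx2-4 (1.1). These 3 windows are examples, and a relation of CpG content to the direction of change was not tested.

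The genes also differed in exon structure. In GENCODE, 14 of the 108 genes consist of 1 exon, all of them Fox genes. Of these, 9 entered the fragment test, of which 5 rose (among them Foxd4, Foxe1, Foxl2 and Foxq1) and 0 fell. Of the 54 tested genes with several exons, 15 rose and 11 fell. Among all rows of the fragment test, whatever their exon number, 15.3% rose and 25.9% fell. Foxd4 and Foxl2 entered that test only through the depleted libraries, and the difference between both classes was not tested.

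In most lists of cofactors and chromatin regulators more genes fell than rose, as among all tested rows. Of the TALE cofactors that bind DNA together with Hox proteins, 5 were tested, 0 rose and 2 fell, namely Tgif1 (log2 change -0.91, adjusted p = 0.00503, limma) and Pbx2 (-0.67, adjusted p = 0.0207). Pbx2 was not called under any of 3 rescalings (adjusted p from 0.113 to 0.151). Pknox1 and Pbx4 were not called, at 3.12 and 3.67 against 2.21 and 2.55 FPKM and at 2.94 and 3.02 against 2.28 and 2.46 FPKM. Of 10 tested genes of retinoic acid metabolism and Hox induction, 1 rose and 4 fell. The riser was Rdh10, which oxidises retinol (log2 change 0.75). The largest falls among those tested were in Stra8 (-2.42), Crabp1 (-1.61) and Cdx1 (-1.35), which are themselves targets or binding proteins of retinoic acid. Stra8 passed the filter only through the present libraries. Other genes of the list were too low to be tested and are named after their values were seen. Cdx2 (0.0230 and 0.0169 against 0.245 and 0.156 FPKM), Rarb (0.0178 and 0.0261 against 0.114 and 0.155 FPKM), Cyp26a1 (0.0554 and 0.0203 against 0.118 and 0.161 FPKM) and Cyp26b1 (0.0140 and 0.0192 against 0.0893 and 0.106 FPKM) were higher in both depleted libraries. Gdf11 (0.209 and 0.220 against 0.145 and 0.184 FPKM) and Meox1 (0.201 and 0.295 against 0.0357 and 0 FPKM) were lower in both, and Cdx4 overlapped between groups.

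Of 20 tested subunits of Polycomb repressive complexes, 9 fell and 1 rose. Cbx2 fell by 1.80 on the log2 scale, from 6.60 and 6.41 to 1.58 and 1.45 FPKM. Ezh2 (log2 change -1.30), Phf19 (-1.13) and Pcgf6 (-1.11) fell as well, while Aebp2, named after its value was seen, rose by 0.74. The number that fell depended on scaling and was 6 with median-of-ratios scaling, 5 with quantile normalization and 2, Cbx2 and Phf19, when the 50 highest rows were left out. Of 11 tested Trithorax and H3K27 demethylase genes 0 rose and 3 fell, namely Wdr5, Dpy30 and Rbbp5; the H3K27 demethylases Kdm6a (2.73 and 2.91 against 2.82 and 5.21 FPKM) and Kdm6b (2.65 and 2.61 against 2.70 and 2.18 FPKM) overlapped between groups. Of 4 tested LIM cofactors Ldb1 and Ssbp4 fell (log2 changes -0.92 and -0.93), Ssbp3 rose (0.99) and Lmo4 was not called. Of 13 tested cell-cycle targets of Foxm1, 11 fell and 0 rose, and those with the smallest p were Aurkb (log2 change -1.65), Nek2 (-1.51), Ccnb2 (-1.43) and Aurka (-1.10). Of 6 tested homeobox genes outside these families, 4 rose, among them Msx2 (log2 change 1.36), Otx2 (0.82) and Hhex (0.52), and 2 fell, Prrx2 (-1.16) and En2 (-0.99). Among these, Msx2 passed the filter only through the depleted libraries, and Prrx2 and En2 only through the present ones.

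Marker genes of other cell types moved at the same time. The cells had the embryonic stem cell marker Pou5f1 at 471 and 434 FPKM in the present and at 413 and 286 FPKM in the depleted libraries, which was not called (limma, adjusted p = 0.167), and 7 of 9 tested embryonic stem cell markers fell, for example Fgf4 (log2 change -2.33), Klf4 (-1.57) and Esrrb (-1.32). All 5 tested trophectoderm markers rose, and under quantile normalization 4 of 5 passed. The summed FPKM of that list was 23.07 and 24.97 in the present and 125 and 92.7 in the depleted libraries, mostly Krt8 and Krt18. Of the markers too low to be tested, Cdx2 and Gata3 were higher in both depleted libraries. Elf5 had 5 and 2 fragments in the present libraries and 0 in both depleted ones. Of 9 tested primitive endoderm markers 6 rose and 1 fell, with sums of 32.2 and 41.7 and of 88.1 and 91.2 FPKM. These sums were mostly Col4a1, Col4a2 and Lama1, of which Lama1 was not called. Of 4 tested neural progenitor markers Nes, Neurod1 and Cdh2 rose and Tubb3 fell, with sums of 83.0 and 79.5 and of 37.3 and 40.5 FPKM that were mostly Tubb3 (81.2 and 77.1 against 23.5 and 19.6 FPKM). Of 2 tested mesoderm markers Mesp2 rose and Tcf15 fell (sums of 46.5 and 45.4 and of 19.4 and 15.0 FPKM, mostly Tcf15). Of 5 tested fibroblast markers Vim, Twist1 and Pdgfra rose and Thy1 fell. The sums were 33.3 and 36.5 in the present and 82.3 and 75.2 FPKM in the depleted libraries, mostly Vim. Of the fibroblast markers too low to be tested, Acta2 and, by a small margin, Col1a2 were higher in both depleted libraries. Pdgfrb and Col3a1 were lower in both, and Postn, Dcn and Lum were at 0 in all 4 libraries. Hand1, Gata6, Sox17, Pdgfra, Neurod1, Cdh2 and Twist1 passed the filter only through the depleted libraries, and Thy1 only through the present ones. The numbers of called markers are therefore given as a description. The part of these marker changes in the changes of the Hox, Fox and other factors was not tested.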

How the data were processed

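The authors deposited 1 table of FPKM values per UCSC known gene, with 1 column per library, per the file headers. Picard, STAR, Bowtie2, bedtools, edgeR and the mm9 build are listed in the submitters' processing notes. The step that made the FPKM values, and whether it used strand, are not given in the sources used here. Libraries were stranded and ribosomal RNA-depleted, per the labels' protocols.

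For the main test, values were taken as log2(FPKM + 0.5) and rows averaging 0.5 FPKM or more were fitted with limma (version 3.58.1, in R 4.3.3, variance prior with a trend, no covariate). P-values were two-sided and Benjamini-Hochberg adjusted over all tested rows, with a threshold of 0.05. Library totals, model lengths and fragments were recovered from the spacing of the FPKM values. All 15471 rows above 0 gave whole fragments within a tolerance of 0.001. Of the recovered lengths of 100 genes, 63 lay within 10% of an annotated transcript, and in rows with few fragments counts may be off by a whole factor. The fragment test was limma-voom with at least 10 fragments. Each test was tried on simulated data. Replicates with the same number did not count as pairs, since only 2 pairs exist.

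The members and gene lists were chosen with earlier results of these data known. Named are all tested members, untested ones above 0 in both libraries of a group with a mean ratio of at least 4 or listed at 0 in the other group, the highest member of each family and the 4 partner genes with the smallest p in each list. Members called in the fragment test alone and other genes outside this rule were named after their values were seen. Alternatives covered pseudocounts, filters, scaling, the variance prior, a replicate block and leaving out each library. A few genes counted here are not reported by name.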

Additional observations from a re-analysis of the deposited data

How the results depend on the processing

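The depth of the libraries and the small number of replicates limit these results: 86 of the 108 genes have a mean under 0.5 FPKM, many rest on fewer than 10 fragments, and each group has 2 libraries. With 1 library left out, the lone library of that group is assumed to vary like the others. Counting values below 0.05 FPKM as silent gave 44 genes in place of 8. The number of members that rose by the main test was 6 and was 21 with no filter, 20 in the fragment test and 5 to 7 when 1 library was left out. The number that fell was 7 and was 4 with a filter at 1 FPKM, with median-of-ratios scaling and with quantile normalization, 3 when the 50 highest rows were left out of the scaling, 11 in the fragment test and 2 to 10 when 1 library was left out, with 2 without either present replicate. A higher filter tests fewer genes, and otherwise the cause was not tested. In the fragment test 20 rose, 13 with a minimum of 30 fragments and 16 to 21 when 1 library was left out, and 11 fell, 7 to 14 when 1 library was left out, with 7 without either present replicate. With library totals set to the fragments in listed models, 21 rose and 8 fell, and over all rows of that test 2569 rose and 2341 fell, against 1992 and 3374 with the recovered totals. By the main test over all rows 1177 rose and 2806 fell. The number that fell was 1848 with median-of-ratios scaling, 1330 without the 50 highest rows and 1795 with quantile normalization, while 1621, 1544 and 1577 rose. Leaving out 1 library gave 668 to 2183 rows that rose and 1082 to 4715 that fell, with the lowest counts without a present replicate.

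Genes without a call changed sign under some settings. Without the 50 highest rows in the scaling, log2 changes were 0.045 for Foxa3, 0.0033 for Foxj2, 0.12 for Foxj3, 0.19 for Foxk1 and 0.16 for Foxo1. With median-of-ratios scaling they were 0.032 for Foxj3, 0.12 for Foxk1 and 0.078 for Foxo1, and with quantile normalization 0.011, 0.037 and 0.027. When 1 library was left out, log2 changes ran from -0.53 to 0.19 for Foxj3, from -0.18 to 0.056 for Foxk1, from -0.32 to 0.097 for Foxo1 and from -0.11 to 0.41 for Foxp1. Some gained a call without depleted replicate 1, namely Foxa3 (adjusted p = 0.0409), Foxd3 (0.0137) and Foxp1 (0.0177), or without depleted replicate 2, namely Foxd3 (0.0466), Foxj3 (0.00807), Foxn2 (0.0012) and Six5 (0.0158). All 13 called members kept their direction under each alternative in which they were tested. Exosc3 kept its call under all 14 alternatives.

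With the replicate number as a block, 6 members rose and 7 fell, as without it, and over all rows 1431 rose and 3468 fell. Same-numbered libraries of the 2 groups deviated together with a correlation of 0.244 over 2 pairs, which does not establish pairing.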
